A study of Mus musculus with 8 samples.

Results

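The Toll-like receptors and the accessory proteins they work with were followed through 8 arrays of mouse bone marrow cultures. The group held 10 genes, which were Tlr1, Tlr2, Tlr3, Tlr4, Tlr6, Tlr7, Tlr9, Cd180, Ly86 and Myd88, out of 21534 named genes on the array. Its members were every probe that carried one of these names in the scanner files, 13 of 41174 non-control probes. The rule itself uses no measured value, but the group was proposed with earlier results of these data known. The cultures were bone marrow from 10-week-old C57BL/6 mice kept for 5 days with IL-7, the cytokine that favours growth of B cell precursors. Of the 4 groups, one came from Bob1-/- mice and one from their Bob1+/+ wild-type counterparts. The other two were mir-146a-/- mice and a separate wild-type group labelled C57BL/6Ncrl, called BL6 wild-type here. Each group had 2 arrays, replicate A from a female and replicate B from a male culture. The labels describe the arrays of a group as biological duplicates but give no number of mice per culture. A p-value here thus rests on how far the 2 cultures of a group lie apart, pooled over the 4 groups. That spread also holds any difference between the sexes and, in the BL6 wild-type and miR-146a knockout groups, between array slides. For each feature the limma fit also drew it toward the spread typical of all features.

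Toll-like receptors recognise conserved microbial molecules. Tlr1, Tlr2, Tlr4 and Tlr6 act at the cell surface on lipopeptides and lipopolysaccharide, while Tlr3, Tlr7 and Tlr9 act in endosomes on nucleic acids. All except Tlr3 signal through the adaptor Myd88, which recruits Irak kinases and Traf6 and leads to NF-kB. Cd180 is a receptor-like relative of Tlr4 without a signalling domain of the Toll type. It is held at the surface by Ly86 (MD-1) and is best known from B cells and myeloid cells. Bob1, encoded by Pou2af1, is a B cell coactivator that joins Oct factors on the octamer motif, and miR-146a is known for repressing Irak1 and Traf6.

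The level given below is the log2 processed signal of a probe minus the 75th percentile of its array, so that 0 stands at that percentile. Levels of different probes cannot be compared, since each probe binds with its own strength. Pou2af1 itself had levels of 2.74 and 2.87 on the Bob1 knockout arrays and between 6.45 and 6.76 on the other 6. The arrays lay on 2 slides. Both Bob1 wild-type arrays were on slide 1 and both Bob1 knockout arrays on slide 2, while the BL6 wild-type and miR-146a knockout groups had 1 array on each, so slide and genotype cannot be told apart between the Bob1 groups alone. All 11 markers of B cell precursors that were looked at, among them Pax5 and Vpreb1, were well above background in every group. Replicates correlated at 0.988 to 0.993 over the tested features. The Bob1 knockout arrays correlated at 0.970 to 0.979 with the other groups, and the other 6 arrays at 0.988 to 0.994 with each other. The knockout arrays also had the lowest share of probes well above background (60.5% and 63.1% on replicates A and B, against 63.3% to 66.1%) and the lowest 75th percentile of signal (483 and 601 intensity units, against 608 to 757). The part of this in the lower levels described below was not tested.

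Sequences of miR-146 and of promoters of the group are shown first, as background to the knockouts. Seed sites of miR-146a were not looked for in the transcripts of the group. Mature miR-146a carries the seed (bases 2 to 8, in capitals) that defines its targets, and miR-146b, encoded by another gene, has the same seed and differs at 2 positions. RefSeq (GRCm38.p6) places the mature miR-146a at chr11:43374435-43374456 on the minus strand and miR-146b at chr19:46342790-46342811 on the plus strand.
mmu-miR-146a-5p: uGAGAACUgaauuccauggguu
mmu-miR-146b-5p: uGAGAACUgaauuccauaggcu

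RefSeq promoter windows, 250 bases before to 50 after the start of a gene, were at hand for 8 of the 10 genes, all but Tlr4 and Tlr7. These were 11 windows, since some genes have several starts. They were searched on both strands for the octamer ATGCAAAT, which 1.74% of all 32851 windows hold. Among the 8 genes only the Tlr9 window held it, 72 bases before the start. The shorter ATGCAAA, chosen after the Cd180 window had been seen, is the octamer without its last base and is contained in it. It lay in 4.63% of all windows, and 0.292% held 2 or more matches. The Cd180 window held 2, at 64 bases before the start on the same strand and at 18 bases before it on the opposite strand. Of the 8 genes, Tlr9 was the only other one with a match, through its octamer. The core GAGGAA that PU.1 binds was found in 28.3% of all windows and in that of Tlr9. Of the Tlr1 windows only the one at chr5:64933509-64933808 held it. These are matches of letters in a window, not binding measurements. The 250 bases before the start of both genes are shown with the matches to ATGCAAA in Cd180 and to the octamer in Tlr9 in capitals, because Cd180 had the largest change of the group and Tlr9 the smallest. The Cd180 stretch is chr13:102693297-102693546 and the Tlr9 stretch chr9:106222348-106222597, both on the plus strand of GRCm38.p6.
Cd180: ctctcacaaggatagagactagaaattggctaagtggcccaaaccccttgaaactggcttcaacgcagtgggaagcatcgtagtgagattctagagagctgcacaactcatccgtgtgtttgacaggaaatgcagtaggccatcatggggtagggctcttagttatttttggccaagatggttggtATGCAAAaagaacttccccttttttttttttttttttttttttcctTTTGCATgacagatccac
Tlr9: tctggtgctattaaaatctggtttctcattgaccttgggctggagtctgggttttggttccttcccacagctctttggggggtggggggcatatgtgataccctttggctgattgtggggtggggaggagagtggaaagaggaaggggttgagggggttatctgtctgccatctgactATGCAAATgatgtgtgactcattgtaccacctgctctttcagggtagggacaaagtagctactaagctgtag

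Of the 10 genes, 9 were measurable in every culture. Cd180, Ly86, Tlr1, Tlr2, Tlr4, Tlr6, Tlr7, Tlr9 and Myd88 each had a probe well above background on all 8 arrays. Both Tlr3 probes, at chr8:46482009-46482068 and chr8:46481729-46481788 (mm9, the build of the scanner files), were well above background on 0 of 8 arrays, so Tlr3, the endosomal receptor for double-stranded RNA, was not tested. A second Tlr4 probe at chr4:66590556-66590615 was likewise well above background on 0 of 8 arrays. An annotation of mm9 was not used here, so the exon or untranslated region that a probe lies in is not given.

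**Figure D1:**
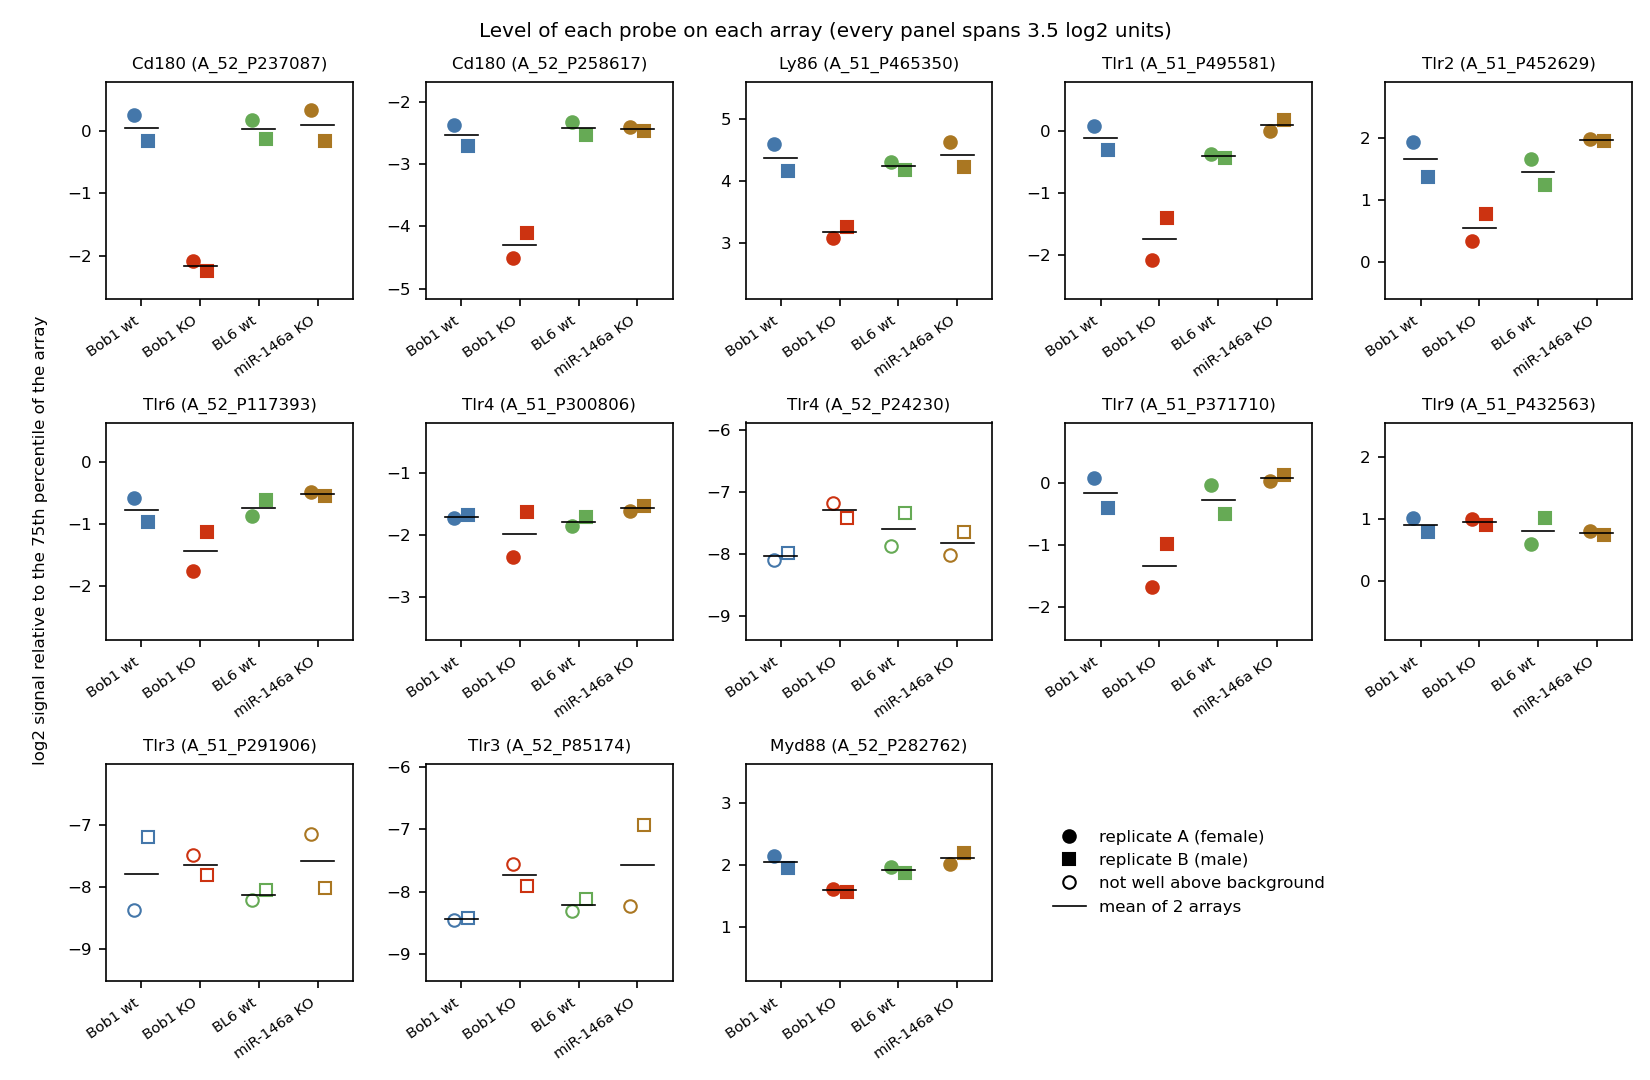
Levels of the 13 probes on all 8 arrays, as log2 signal relative to the 75th percentile of the array (vertical axis, 3.5 log2 units in every panel), by group. Circles are replicate A, squares replicate B, lines the mean of 2 arrays, and open symbols are not well above background; for Cd180, Ly86, Tlr1, Tlr2, Tlr6, Tlr7 and Myd88 both Bob1 knockout arrays lie below the other 6.

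Cd180 and its partner Ly86 were the accessory receptor genes with lower levels in the Bob1 knockout. The main Cd180 probe, at chr13:103494202-103494261, had levels of -2.09 and -2.24 in Bob1 knockout replicates A and B and of 0.26 and -0.16 in Bob1 wild-type. It had 0.18 and -0.12 in BL6 wild-type and 0.35 and -0.15 in the miR-146a knockout. The 2 knockout arrays thus lay far below the lowest of the other 6, and those 6 overlapped whatever their genotype. Cd180 fell in the Bob1 knockout against Bob1 wild-type by 2.22 on the log2 scale (SE 0.23, 4.65-fold lower, adjusted p = 0.0052, limma with Benjamini-Hochberg adjustment over 17482 features). A second, dimmer Cd180 probe at chr13:103496269-103496328 gave -4.51 and -4.10 in the knockout and -2.70 to -2.32 on the other 6 arrays. Tested on its own, it was 3.41-fold lower (adjusted p = 0.0058), so both probes of the gene moved the same way. Leaving out each of the 8 arrays in turn kept the call for Cd180 (adjusted p 0.0093 to 0.032).

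Ly86, at chr13:37510701-37510760, had levels of 3.08 and 3.26 in the Bob1 knockout and of 4.59 and 4.15 in Bob1 wild-type. It had 4.30 and 4.17 in BL6 wild-type and 4.62 and 4.22 in the miR-146a knockout. The knockout arrays were again below all others. Ly86 fell by 1.202 on the log2 scale (SE 0.20, 2.30-fold lower, limma adjusted p = 0.026). Leaving out Bob1 wild-type replicate A, knockout replicate A or knockout replicate B ended this call (adjusted p 0.11, 0.10 and 0.070).

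The surface receptors for lipopeptides, Tlr1, Tlr2 and Tlr6, were lowest in the Bob1 knockout as well, but of the 3 only Tlr1 passed the test. Tlr1, which pairs with Tlr2, has its probe at chr5:65316115-65316174. Its levels were -2.09 and -1.41 in the Bob1 knockout, 0.08 and -0.31 in Bob1 wild-type, -0.37 and -0.44 in BL6 wild-type and 0.00 and 0.17 in the miR-146a knockout. It fell by 1.63 on the log2 scale (SE 0.25, 3.10-fold lower, limma adjusted p = 0.018). Without Bob1 wild-type replicate A, the adjusted p was 0.092. Both knockout arrays were below the other 6, and replicate A was the lower of them.

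Tlr2, the common partner of Tlr1 and Tlr6, has its probe at chr3:83640344-83640403. Its levels were 0.33 and 0.76 in the Bob1 knockout, 1.93 and 1.36 in Bob1 wild-type, 1.66 and 1.23 in BL6 wild-type and 1.98 and 1.95 in the miR-146a knockout. Both Bob1 knockout arrays lay below the other 6, but the female and male replicates of each wild-type group also stood apart. The fold change was -1.10 (SE 0.25, 95% interval -1.72 to -0.49, limma adjusted p = 0.056), just outside the threshold of 0.05. The probe of Tlr6 at chr5:65344365-65344424 had -1.75 and -1.12 in the knockout, -0.58 and -0.96 in Bob1 wild-type and -0.87 to -0.48 on the remaining 4 arrays. Its fold change was -0.66 (SE 0.24, limma adjusted p = 0.14), and knockout replicate B lay just below the lowest wild-type array.

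Tlr4, the receptor for lipopolysaccharide, did not pass the test. Its measurable probe at chr4:66503724-66503782 had levels of -2.35 and -1.63 in the Bob1 knockout and of -1.72 and -1.68 in Bob1 wild-type. It ranged from -1.85 to -1.53 in the other groups. Knockout replicate A was the lowest of the 8 arrays while replicate B lay among the others, and the fold change was -0.28 (SE 0.23, 95% interval -0.84 to 0.27, limma adjusted p = 0.43). Its co-receptors gave -0.51 for Ly96 (adjusted p = 0.25) and -1.22 for Cd14 (adjusted p = 0.064).

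The endosomal receptors Tlr7 and Tlr9 differed in their values. Tlr7, which senses single-stranded RNA, has its probe at chrX:163743189-163743248. Its levels were -1.69 and -0.997 in the Bob1 knockout, 0.08 and -0.40 in Bob1 wild-type, -0.05 and -0.51 in BL6 wild-type and 0.02 and 0.12 in the miR-146a knockout. The knockout arrays were the lowest, and the fold change was -1.18 (SE 0.29, 95% interval -1.88 to -0.48, limma adjusted p = 0.063). Tlr9, which senses unmethylated CpG DNA, has its probe at chr9:106128979-106129038. Its levels were 0.996 and 0.90 in the Bob1 knockout, 1.01 and 0.78 in Bob1 wild-type, 0.59 and 1.002 in BL6 wild-type and 0.81 and 0.74 in the miR-146a knockout. The Bob1 knockout arrays of Tlr9 lay within the range of each wild-type group and above both miR-146a knockout arrays. Its fold change against Bob1 wild-type was 0.05 (SE 0.17, 95% interval -0.36 to 0.46, limma adjusted p = 0.85). Unc93b1, the chaperone that brings the endosomal receptors to their compartment, had a fold change of -0.49 (adjusted p = 0.060). The difference between Tlr7 and Tlr9 in their change was not tested.

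Myd88, the shared adaptor, has its probe at chr9:119245322-119245381. Its levels were 1.62 and 1.56 in the Bob1 knockout, 2.14 and 1.94 in Bob1 wild-type, 1.96 and 1.86 in BL6 wild-type and 2.01 and 2.20 in the miR-146a knockout. The probe was printed 10 times on each array, with an SD of 0.06 to 0.15 between its spots. The knockout arrays were below the other 6, but the difference was small, with a fold change of -0.45 (SE 0.13, 95% interval -0.77 to -0.13, limma adjusted p = 0.094).

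In the comparison of Bob1 knockout with Bob1 wild-type, 3 of the 9 tested genes were called, all lower, against 6.71% of all 17482 features called in either direction and 3.33% called lower. The features called were 590 higher and 583 lower, against 625 and 368 in the authors' deposited table and 2162 and 856 with normexp without spots below their background. At an unadjusted p under 0.05 there were 7 of 9, against 28.4% of all features. The median log2 fold change of the 9 genes was -1.10, and that of all features was 0.11. Both Bob1 knockout arrays were below the other 6 for 7 of the 9 genes, which was so for 15.2% of all features. The 9 genes were not drawn at random, so these shares describe the group and its background. In these mixed cultures, fewer cells of a type and less RNA per cell cannot be told apart.

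**Figure D2:**
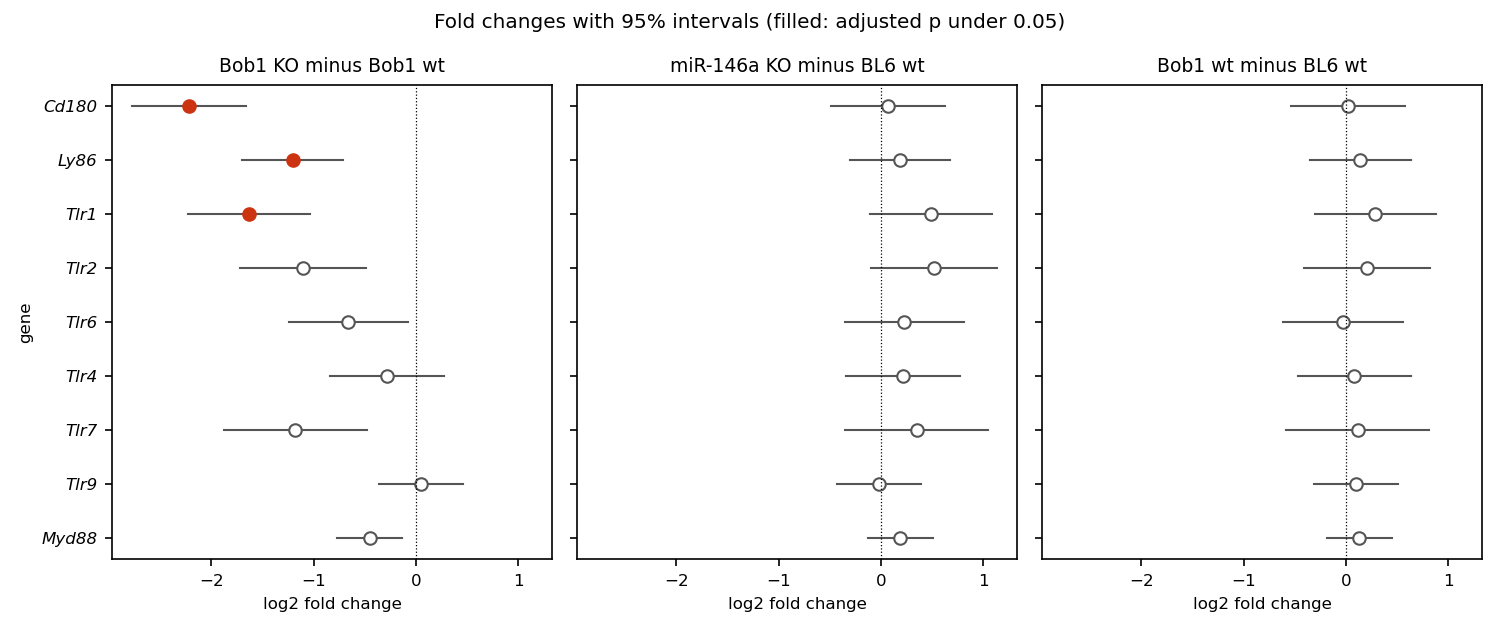
Log2 fold change (horizontal axis) of the 9 tested genes with its 95% interval in 3 comparisons. Filled red points passed an adjusted p under 0.05, and only Cd180, Ly86 and Tlr1 did, all in the Bob1 comparison; the intervals of the miR-146a and of the wild-type comparison include 0 for all 9 genes.

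The slide limits these calls. With slide as a block, which leaves only the BL6 wild-type and miR-146a knockout arrays to estimate it, Cd180 gave -2.32 (limma adjusted p = 0.093), Tlr1 -1.51 (0.25) and Ly86 -1.34 (0.21). None of the 9 genes was then called (3 had an unadjusted p under 0.05), and 122 features were called in all. Normexp background correction called 0 features, with 120 at an unadjusted p under 0.05 and Cd180 among them (-1.48, unadjusted p = 0.016). In the authors' deposited table the Cd180 difference was -0.58 (limma adjusted p = 0.058) and that of Tlr1 -0.44. Tlr1 and Ly86 were still called lower there, as the only 2 of the 9 genes. Without a filter on dim probes Ly86 had an adjusted p of 0.057, and with the arrays of the Bob1 groups alone Ly86 had 0.084 and Tlr1 0.089. Within slide 2, both knockout arrays were set against BL6 wild-type B and miR-146a knockout A, with no test. The mean difference was -2.28 for Cd180, -1.53 for Tlr1 and -1.23 for Ly86, close to the values between slides. It was -1.10 for Tlr7, -1.06 for Tlr2, -0.89 for Tlr6, -0.35 for Myd88, -0.33 for Tlr4 and 0.04 for Tlr9. Both knockout arrays were the lower ones for all except Tlr4 and Tlr9.

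Markers of most other cell types had lower means in Bob1 knockout than in Bob1 wild-type. Of 10 mature B cell markers 7 were called lower in the limma fit, with a median log2 fold change of -2.36, and 3 with slide as a block. They included Ms4a1 (-5.41, adjusted p = 0.00093), which encodes CD20, and Cd83 (-2.52, adjusted p = 0.0090), a B cell activation marker. The summed signal of the 10 markers was 26.4 on both Bob1 knockout arrays and 134 to 165 on the other 6, and Cd74 alone made up 64.4% to 78.0% of it. Such a sum, here and below, weighs each gene by the brightness of its probe and mostly follows the brightest ones.

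Over 14 markers of monocytes and macrophages none was called, but all 14 had lower means (median -1.10). Their summed signal was 225 on knockout replicate A, 398 on knockout replicate B and 373 to 538 on the other 6, and Lyz2 alone made up 81.9% to 90.0% of it. Of 11 neutrophil markers 10 had lower means (median -0.83) and Elane was called, but not with slide as a block. Their sum was 827 and 1047 on the knockout arrays and 937 to 1273 on the others, with 49.2% to 62.1% of it from S100a9. Of 11 dendritic cell markers 7 had lower means (median -0.64) and none was called. Their sum was 55.4 and 55.8, against 62.2 to 133, with 67.8% to 86.5% of it from Ly6c2.

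The remaining lists went the same way in their medians. All 9 markers of T and NK cells (median -1.23, sum 2.42 to 4.52 against 3.497 to 10.9) and all 8 of mast cells and basophils (-0.84, 8.63 to 9.10 against 9.62 to 29.2) had lower means. So did all 7 of megakaryocytes (-0.90, 61.8 to 89.1 against 99.6 to 187) and all 8 of stroma and endothelium (-1.12, 1.42 to 9.72 against 2.04 to 11.5). With slide as a block the median was -0.38 for stroma and endothelium, -0.64 for T and NK cells and -0.77 for megakaryocytes. It was -0.44 for mast cells and basophils, -0.46 for neutrophils, -0.39 for dendritic cells and -0.79 for monocytes and macrophages. It was -2.38 for mature B cells and -0.85 for erythroid cells. On knockout replicate B only 2 of the 8 stroma genes lay below the median of the other 6 arrays, with a median difference of 0.81. The stroma list was also higher in Bob1 wild-type than in BL6 wild-type, by a median of 1.09. Erythroid markers had 3 of 6 lower (-0.30, sum 0.90 to 1.03 against 1.02 to 3.07). In these lists Ermap and Cdh5 were called, and Cdh5 was still called with slide as a block. Clec9a, Ncr1, Gzma, Alas2, Ermap and Cdh5 were not well above background on either knockout array.

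Of the 11 precursor markers, Il7r, the IL-7 receptor, was called higher (0.80, limma adjusted p = 0.031) and Cd79b, a subunit of the B cell receptor, lower (-1.39, adjusted p = 0.0093). Neither was called with slide as a block. The median of the list was 0.11, and -0.03 with slide as a block. Its sum was 728 and 846 on the knockout arrays and 713 to 915 on the others. The part of these other cells in the lower receptor levels was not tested.

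Each knockout array was also set against the median of the other 6, gene by gene. On replicate A the log2 difference was -2.12 for Cd180, -1.94 for Tlr1, -1.67 for Tlr7, -1.47 for Tlr2, -1.18 for Ly86, -1.15 for Tlr6, -0.65 for Tlr4, -0.37 for Myd88 and 0.20 for Tlr9. On replicate B it was -2.27 for Cd180, -1.25 for Tlr1, -1.03 for Tlr2, -0.997 for Ly86, -0.98 for Tlr7, -0.52 for Tlr6, -0.42 for Myd88, 0.07 for Tlr4 and 0.10 for Tlr9. The median over the 14 monocyte markers was -1.59 on replicate A and -0.57 on replicate B, and over the 10 mature B cell markers it was -2.11 and -2.36. Tlr1, Tlr2, Tlr4, Tlr6, Tlr7 and Ly86 were lower on replicate A than on replicate B. Myd88, Tlr9 and the main Cd180 probe were not, while the second Cd180 probe was lower on replicate A. The medians of the monocyte, neutrophil, mast cell and basophil, erythroid, megakaryocyte and stroma lists were also lower on replicate A. Those of the mature B cell, dendritic cell, T and NK cell and precursor lists were lower on replicate B. The share of all features lower on replicate A was not computed.

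**Figure D3:**
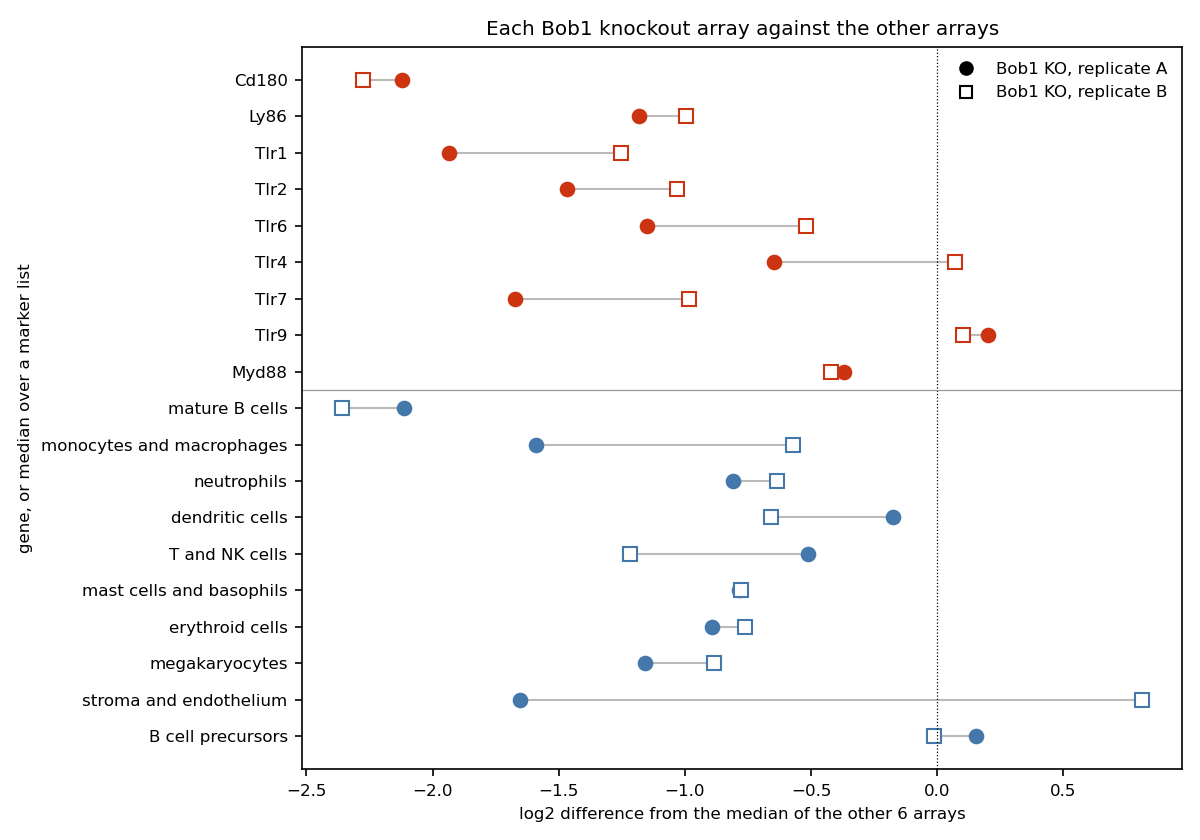
Difference of each Bob1 knockout array from the median of the other 6 arrays (horizontal axis, log2 units) for the 9 tested genes (red, main probe) and, as the median over the genes of a list, for 10 marker lists (blue; 5 of the 6 erythroid genes had values on all arrays). Circles are replicate A and open squares replicate B; the monocyte list lies at -1.59 on replicate A and at -0.57 on replicate B, the mature B cell list and Cd180 below -2 on both, and the stroma list at -1.65 and 0.81.

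The rest of the pathway was described through lists of its parts in the same comparison. Of 14 co-receptors, chaperones and transport proteins, 1 was called, Cd36, a scavenger receptor that assists Tlr2 (-1.61, limma adjusted p = 0.025), and the median was -0.50. None of the 4 tested adaptors was called, and Tirap, which links Myd88 to the surface receptors, had 0.45 (adjusted p = 0.21). Among 19 kinases and ubiquitin ligases Traf3 was the only one called (-0.71, adjusted p = 0.016), and 10 of the 19 had lower means, with a median of -0.02. Irak1 gave 0.09, Irak4 -0.28 and Traf6 0.05, none of them called. Among 11 inhibitors Tnfaip3 (A20) was the only one called (-0.84, adjusted p = 0.023), and 6 of the 11 had lower means, with a median of -0.0088.

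Further downstream, 3 of 10 transcription factors fell. They were Irf5 (-1.02, limma adjusted p = 0.0079), which acts below Myd88, Nfkbiz (-0.81, adjusted p = 0.011) and Irf8 (-0.64, adjusted p = 0.024), and the median of the list was -0.66. Of 17 tested genes that receptor signalling is known to induce, 2 fell, Cd86 (-1.60, adjusted p = 0.029) and Socs3 (-0.93, adjusted p = 0.045). All 17 had lower means, with a median of -1.09 against 0.11 over all features. Tlr5, the only further receptor that could be tested, gave -0.71 (adjusted p = 0.17). With slide as a block no gene of these pathway lists was called (adjusted p 0.13 for Irf5, 0.25 for Cd36).

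In the miR-146a knockout against BL6 wild-type, none of the 9 genes was called in the limma fit, where 0.103% of all features (18) were. None had an unadjusted p under 0.05, against 2.86% of all features, and no alternative setting called one. The fold changes ran from -0.02 for Tlr9 to 0.52 for Tlr2, and 8 of 9 were above 0. Their median was 0.22, against -0.03 over all features. Tlr2 (SE 0.25, 95% interval -0.09 to 1.13) and Tlr1 (0.49, SE 0.25, interval -0.11 to 1.09) had the highest values. For 6 of the 9 genes, Tlr1, Tlr2, Tlr4, Tlr6, Tlr7 and Myd88, both miR-146a knockout arrays lay above both BL6 wild-type arrays. The share of all features in this order was not computed, so the count does not set the group apart from its background. Cd180 gave 0.07 (interval -0.49 to 0.62) and Myd88 0.19 (interval -0.13 to 0.51). Irak1 and Traf6, which miR-146a is known to repress, gave 0.05 and -0.02.

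The 2 knockout effects were compared directly, by subtracting the change in the miR-146a knockout from that in the Bob1 knockout. It was called for 2 of the 9 genes, Cd180 (-2.28, SE 0.33, limma adjusted p = 0.027) and Tlr1 (-2.12, SE 0.35, adjusted p = 0.041), against 2.05% of all features. Ly86 (-1.39, adjusted p = 0.077), Tlr2 (-1.62, adjusted p = 0.086) and Tlr7 (-1.53, adjusted p = 0.12) did not pass. With slide as a block neither call was kept (adjusted p 0.17 for Cd180 and 0.26 for Tlr1). Leaving out single arrays ended the Cd180 call in 6 of 8 cases and the Tlr1 call in 7 of 8 (adjusted p up to 0.10 and 0.15).

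Both wild-type groups were also compared. In Bob1 wild-type against BL6 wild-type none of the 9 genes was called, against 0.0458% of all features (8), and none had an unadjusted p under 0.05, against 2.17%. The fold changes ran from -0.03 for Tlr6 to 0.29 for Tlr1. Between the sexes, which coincide with the replicate letters, none was called either, against 0.04% of all features (7), and 1 of 9 had an unadjusted p under 0.05, against 14% of all features. Tlr7 lies on the X chromosome and gave 0.04 for female minus male (SE 0.22, limma adjusted p = 0.95). The main Cd180 probe gave 0.35 (SE 0.09, unadjusted p = 0.010, limma adjusted p = 0.27), with the female level the higher one in all 4 groups. The second Cd180 probe gave 0.05 (adjusted p = 0.89), and its female level was the lower one in the Bob1 knockout.

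For the 3 called genes, the named genes with the most similar levels over the 8 arrays were sought among 14574 candidates, as a description in which the 2 knockout arrays carry most of the spread. The genes most like Cd180 included Cd83 (Pearson r = 0.998) and Wnt10a (0.994). Ly86 was most like Palm, Nxpe2 and St3gal1. Tlr1 was most like 5730416F02Rik, Slc15a3 and Sbno2.

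**Figure D4:**
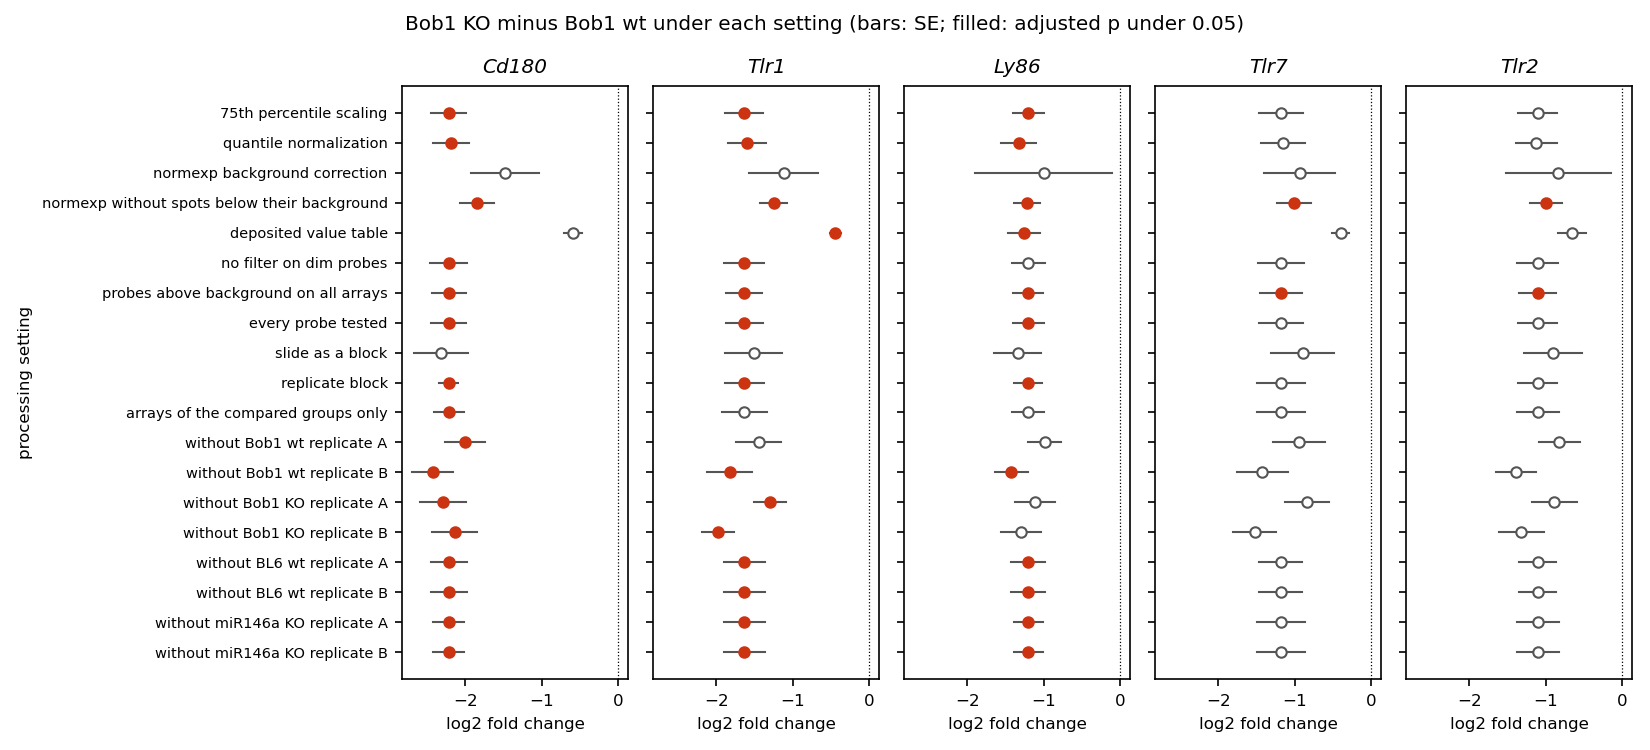
Log2 fold change of Cd180, Tlr1, Ly86, Tlr7 and Tlr2 between Bob1 knockout and Bob1 wild-type (horizontal axis) under each processing setting (vertical axis), with bars of 1 SE. Filled red points have an adjusted p under 0.05; all points are below 0, and slide as a block and normexp on all spots leave none of the 5 genes called.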

How the data were processed

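Total RNA of 8 cultures was labelled with Cy3 from an oligo-dT primer and hybridised to one-colour Agilent arrays, per the labels' protocols. The deposited scanner files hold an intensity for each spot, the processed signal of Feature Extraction 10.5.1.1, already background-subtracted, and a flag score (1 or 0) for signal well above background, per the file headers. A table of log2 values that the authors deposited served as an alternative. Its lowest quartile lies at 9.51 on every array, so low signals differ little in it, and no source at hand states how it was normalized. The submitters' processing notes name limma.

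Control and outlier spots (71 to 156 per array) were left out, and 0 spots were saturated. The log2 signal minus the 75th percentile of each array (483 to 757 intensity units) was averaged per probe, and 60.5% to 66.1% of probes were well above background, depending on the array. A probe was tested if well above background on both arrays of a group, and a gene was represented by its brightest such probe, giving 17482 features. All 8 arrays entered 1 limma fit (version 3.58.1, R 4.3.3) with 4 group means and 4 residual degrees of freedom, and the sex comparison added sex as a term. Empirical Bayes moderation of each feature's variance added to the residual degrees of freedom. P-values were adjusted by Benjamini-Hochberg over all features, with a threshold of 0.05. The fit was tested on simulated data with independent noise. These held no effect of slide, sex or cell mixture, so that test does not bear on those limits. The members and the lists were chosen with earlier results of these data known. Named genes are the members, the called genes and direct partners in the pathway lists, and the 3 most similar genes of each called member, of which 1 is not reported here. Only 2 arrays per group limit the precision. Alternatives were quantile scaling, normexp, the deposited table, other filters on dim probes, every probe tested, slide or replicate letter as a block, the compared groups alone, and leaving out each array.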

Additional observations from a re-analysis of the deposited data

Results flagged for a closer look

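The difference between the effects of both knockouts was called for 2 of the 9 genes. Cd180 changed by -2.22 in the Bob1 knockout and by 0.07 in the miR-146a knockout, a difference of -2.28 on the log2 scale (limma adjusted p = 0.027). Tlr1 changed by -1.63 and by 0.49, a difference of -2.12 (adjusted p = 0.041). The comparisons use separate control groups. For both genes the 2 Bob1 knockout arrays were below all 6 others. Slide as a block gave adjusted p of 0.17 for Cd180 and 0.26 for Tlr1.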

How the results depend on the processing

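The counts differed by more than 1.5 times under several alternatives, and the cause was not tested unless stated. Against 1173 called features and 3 called genes of the group for the Bob1 comparison, there were 560 features without a filter on dim probes, 122 with slide as a block, and 301 with 1 gene when only the compared groups were fitted. Probes above background on all arrays gave 5 genes, adding Tlr2 (adjusted p = 0.040) and Tlr7 (0.046), and slide as a block gave 0. The difference between the knockout effects (358 features, 2 genes) had 150 in the deposited table, 131 without a filter and 79 with slide as a block, each with 0 genes. The miR-146a comparison (18) had 1 in the deposited table, 9 without a filter, 6 with the all-array filter, 11 with slide as a block and 11 for the compared groups only. The wild-type comparison (8) had 2 in the deposited table, 1 with the all-array filter and 5 for the compared groups only. The sex comparison (7) had 55 with the all-array filter and 0 with quantile scaling, the deposited table and slide as a block (2419, 2407 and 2238 at an unadjusted p under 0.05). The compared groups only leave fewer arrays to estimate the spread.

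Normexp called 0 features and 0 genes in every comparison (120 features at an unadjusted p under 0.05 in limma for the Bob1 comparison), and both knockout arrays lay below the other 6 for 3 genes in place of 7. Its lowest correlation between arrays was 0.796, against 0.970 with percentile scaling. Without 15 spots on 4 arrays that lay below their local background it was 0.979. This last alternative and the within-slide values were chosen after seeing the data. It gave 3018 features and 6 genes for the Bob1 comparison, 749 and 4 for the difference of effects and 166 for sex, and it added Tlr7 (adjusted p = 0.021), Tlr2 (0.020) and Myd88 (0.031). The median fold change of all features in the Bob1 comparison moved from 0.11 to -0.04 with normexp and 0.01 in the deposited table.

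Leaving out single arrays gave 350 to 843 features and 1 to 3 genes for the Bob1 comparison, 120 to 296 and 0 to 1 for the difference of effects, 8 to 24 features for miR-146a, 7 to 34 for the wild-types and 0 to 0 for sex. The lowest Bob1 count was without Bob1 wild-type replicate A, and the highest wild-type count (34) was also without it. A lone remaining array was assumed to vary like the other groups.

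Signs turned for fold changes between -0.28 and 0.19. Tlr9 in the Bob1 comparison (0.05) gave -0.079 with normexp without low spots, -0.032 in the deposited table, -0.19 with slide as a block and -0.060 to 0.17 without single arrays, and Tlr4 (-0.28) gave -0.64 to 0.075. For miR-146a, normexp gave 0.035 for Tlr9 and -0.18 for Cd180, and single arrays -0.23 to 0.18 for Tlr9, -0.19 to 0.32 for Cd180 and -0.014 to 0.39 for Ly86. The difference of effects for Tlr9 was -0.035 with normexp, -0.17 with slide as a block and -0.13 to 0.28 without single arrays. Tlr7 in the sex comparison gave -0.15 with normexp and -0.11 to 0.28 without single arrays.

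With the replicate letter as a block, 1836 features were called in the Bob1 comparison and 582 in the difference of effects, with 3 and 2 genes of the group (Cd180 adjusted p = 0.0013, Tlr1 0.025, Ly86 0.023). Deviations of same-letter arrays correlated at 0.07 to 0.38 over 6 pairs of groups, and the letter coincides with sex, so it was not taken as a pairing.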
